A study of Drosophila melanogaster with 10 samples.

Results

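The genes described here are the glutathione transferases and UDP-glycosyltransferases of the fly Drosophila melanogaster. They are all genes of the expression table whose name starts with GstD, GstE, GstO, GstS, GstT, GstZ or Ugt, which gave 53 of 15422 genes, 35 of them Gst and 18 Ugt genes. Gene expression was measured by sequencing polyA RNA of whole embryos at stages 15 to 16, grown at 25 °C. In 4 genotypes the embryos carried the driver prospero-Gal4 (pros-Gal4) over a UAS transgene of dacapo, a cyclin-dependent kinase inhibitor of the p21/p27 kind. The transgene was wild-type dacapo in dap embryos, and dacapo[CRL4], dacapo[PCNA] or dacapo[CDI] in dapCRL4, dapPCNA and dapCDI embryos, where the labels describe the encoded protein as stabilized. Control embryos were pros-Gal4/+ and had no UAS transgene. Each of the 5 genotypes had 2 libraries, which the labels call independent samples, so n = 2 in every group. The driver acts only in the cells that use the prospero enhancer, while RNA came from whole embryos, and in such bulk RNA fewer cells of a type and less RNA per cell cannot be told apart. Since only the control lacked a UAS transgene, an effect of dacapo and a difference of genetic background between the stocks cannot be told apart.

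Glutathione transferases join the tripeptide glutathione to reactive or foreign molecules, which makes these soluble and ready for export. UDP-glycosyltransferases join a sugar from a UDP-sugar to small lipophilic molecules for the same end. In flies both families are known for the metabolism of insecticides and plant toxins, for the removal of products of oxidative damage and, in single members, for steps of hormone, pigment and amino acid metabolism. The cytosolic glutathione transferases fall into the classes delta, epsilon, omega, sigma, theta and zeta, given by the letter after Gst. The delta and epsilon classes are specific to insects or arthropods and lie in tandem arrays. All 18 Ugt names are older symbols of genes that the current annotation names otherwise. The row named Ugt is the older symbol of Uggt, a glucosyltransferase of the endoplasmic reticulum that tags misfolded glycoproteins, so it is taken in by name but is no detoxifying enzyme.

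Levels are given as RPKM, a read count scaled by transcript length and by library size, which compares genes per length. Changes are log2 differences of the genotype means in limma, with 95% intervals, for genes that reached 1 RPKM in 2 or more of the 10 libraries. A gene was called changed at a Benjamini-Hochberg adjusted p under 0.05 over all 10396 genes tested. The 10 libraries held an estimated 17.1 to 25.8 Mreads (counted reads, in units of 1e6). The gene dap itself stood at 85.8 and 83.4 RPKM with dap, 81.0 and 75.7 with dapCRL4, 70.7 and 73.3 with dapPCNA, 170 and 156 with dapCDI, and 70.5 and 70.7 in control embryos. It rose in dap (log2 0.26, limma adjusted p = 0.0405, and 0.22 with limma adjusted p = 0.0509 after subtraction of the length trend described next) and dapCDI (1.21, limma adjusted p = 2.28e-05), and whether reads of the transgenes count towards it is not known. The change over the control was related to a gene's exon length, with a Spearman rho over 10202 genes (no independent replicates) of −0.571 with dap, −0.30 with dapCRL4, −0.215 with dapPCNA and −0.549 with dapCDI. The tested members are short, with a median exon length of 1121 bases (884 for Gst and 1781 for Ugt genes) beside 2002 bases over all genes tested. Calls of members that were lost or gained when this length trend was subtracted are named with their corrected values.

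In the embryo 5 glutathione transferases held most of the family's RNA. GstT4, a theta-class gene on the X chromosome (13404749 to 13409323, BDGP6), averaged 438 RPKM over the 10 libraries and ranked 292 among all genes. GstE6 averaged 306 RPKM, GstE12 257, GstD1 222 and GstS1 169, and the 5 genes together made up 60.1 to 63.1% of the summed RPKM of the 35 Gst genes in every library. GstD1 is the delta-class enzyme known for the breakdown of DDT, and GstS1 is the only sigma-class gene, known for its abundance in adult flight muscle. GstT4 lay above GstE6 in all 10 libraries, and GstD1 above GstS1. The ranges of GstE6 and GstE12 overlapped over the 10 libraries, as did those of GstE12 and GstD1. The highest Ugt gene was Ugt58Fa, at 100 RPKM.

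Of the 53 genes, 10 averaged at least 100 RPKM, 19 lay between 10 and 100, 12 between 1 and 10 and 12 under 1 RPKM. The median over all genes tested was 19.7 RPKM. The filter kept 43 members, 30 Gst and 13 Ugt genes, and left 10 untested. The untested genes were GstD4, GstD6, GstD7, GstE14, GstO1, Ugt35b, Ugt36Bb, Ugt86Dd, Ugt86Dg and Ugt86Di. GstE14, also called Noppera-bo, is needed for ecdysteroid synthesis in the prothoracic gland of the fly and stood at 0.134 to 0.482 RPKM over all libraries. Ugt86Dd, tied to nicotine resistance in flies, stood at 0.264 to 1.04 RPKM. Ugt86Di was listed at 0 in 8 libraries and had 0.0322 and 0.0285 RPKM with dapCRL4. A gene that passed the filter only through 1 genotype had to be high there, which was the case for Ugt37a1, with over 1 RPKM only in both dap libraries. GstD8 passed only through the 3 stabilized forms, and Ugt86Dc and Ugt86De also lacked a library at 1 RPKM in some genotype.

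**Figure D1:**
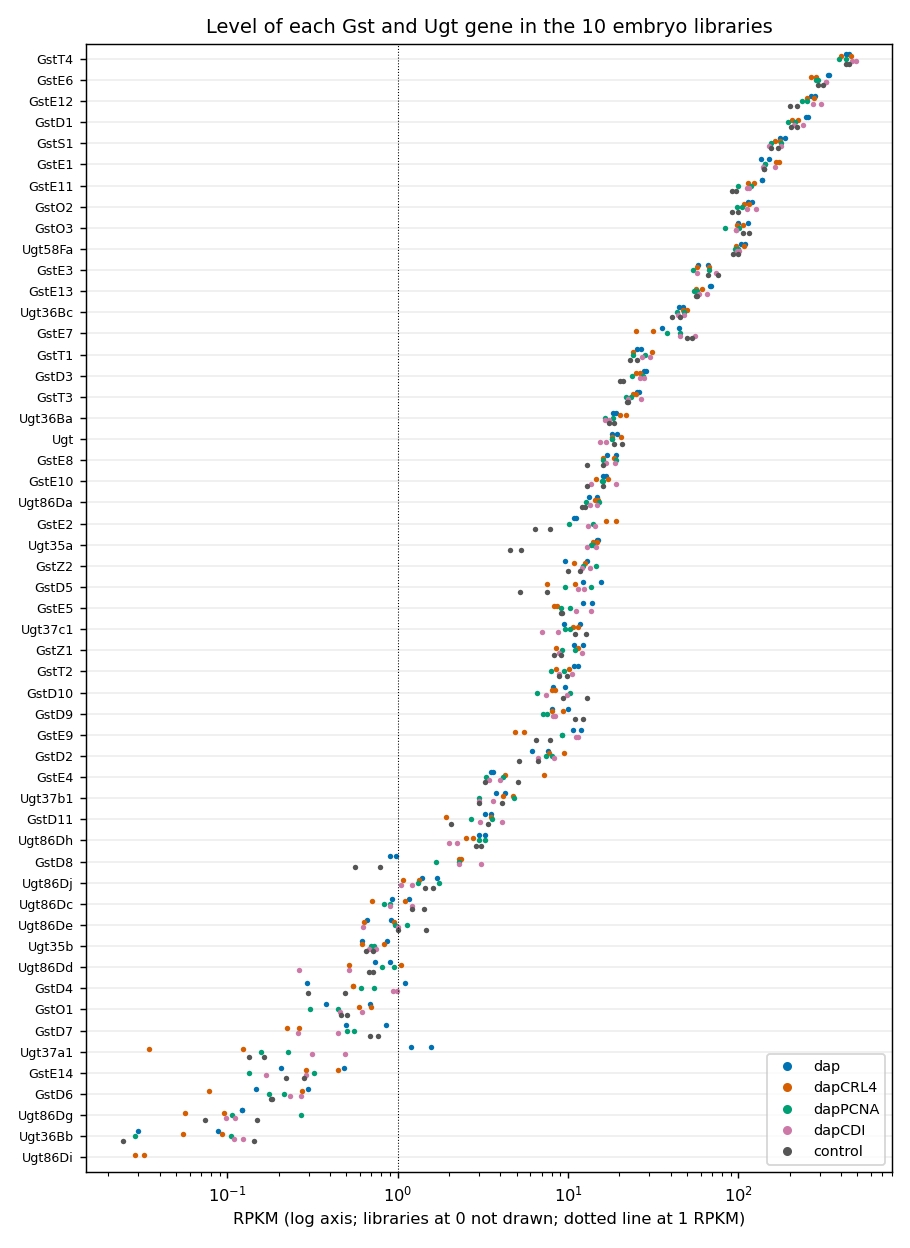
RPKM (log axis) of the 53 Gst and Ugt genes, ordered by their mean, with 1 point per library coloured by genotype and a dotted line at 1 RPKM. Levels spread from GstT4 at a mean of 438 RPKM to Ugt86Di, which is listed at 0 in 8 libraries, and for most genes the 5 genotypes lie close together, with Ugt35a, GstD8, GstE2 and Ugt37a1 among the exceptions.

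Against the control, more members were called higher than lower in each form. In dap embryos 11 of the 43 members rose and none fell, where 11.8% of all genes tested were called, 8.53% higher and 3.27% lower. In dapCRL4 3 members rose and 1 fell, with 1.45% of all genes called, 1.03% higher and 0.423% lower. In dapPCNA 2 rose and 1 fell, with 1.3% of all genes called, 0.741% higher and 0.558% lower. In dapCDI 8 rose and 2 fell, with 7.56% of all genes called, 4.73% higher and 2.83% lower. Without the 4 genes that reached 1 RPKM in only some genotypes, a count added after the data were seen, 10 rose in dap, 2 rose and 1 fell in dapCRL4, 1 rose and 1 fell in dapPCNA, and 7 rose and 2 fell in dapCDI, of 39 members. Over all 43 members the 28 calls fell on 15 genes, with 24 calls higher and 4 lower. Ugt35a was the only member called in all 4 forms, 28 tested members were called in none, and none was called in opposite directions. All 4 comparisons share the 2 control libraries, so their calls are not independent.

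The median change of the 43 members was 0.18 with dap, 0.09 with dapCRL4, 0.06 with dapPCNA and 0.12 with dapCDI on the log2 scale. Over all genes tested it was 0.06, 0.04, 0.00 and 0.04 in the same order. With the length trend subtracted, the members' medians were 0.01, 0.03, 0.03 and −0.04, and the numbers called were 1 higher and 2 lower in dap, 3 and 2 with dapCRL4, 2 and 1 with dapPCNA, and 4 and 2 with dapCDI. The share of all genes called was then 3.45%, 2.12%, 2% and 3.56%. Of the 28 calls as deposited 14 were lost by this correction, and in dap only that of Ugt35a was kept among the rises. The summed RPKM of the 35 Gst genes was 2426 and 2370 with dap, 2165 and 2288 with dapCRL4, 2070 and 2200 with dapPCNA, 2483 and 2272 with dapCDI, and 2163 and 2119 in control embryos. The sums of both libraries of dap, dapCRL4 and dapCDI lay above both controls, by little in the lower dapCRL4 library, and 1 dapPCNA library lay below both controls.

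**Figure D2:**
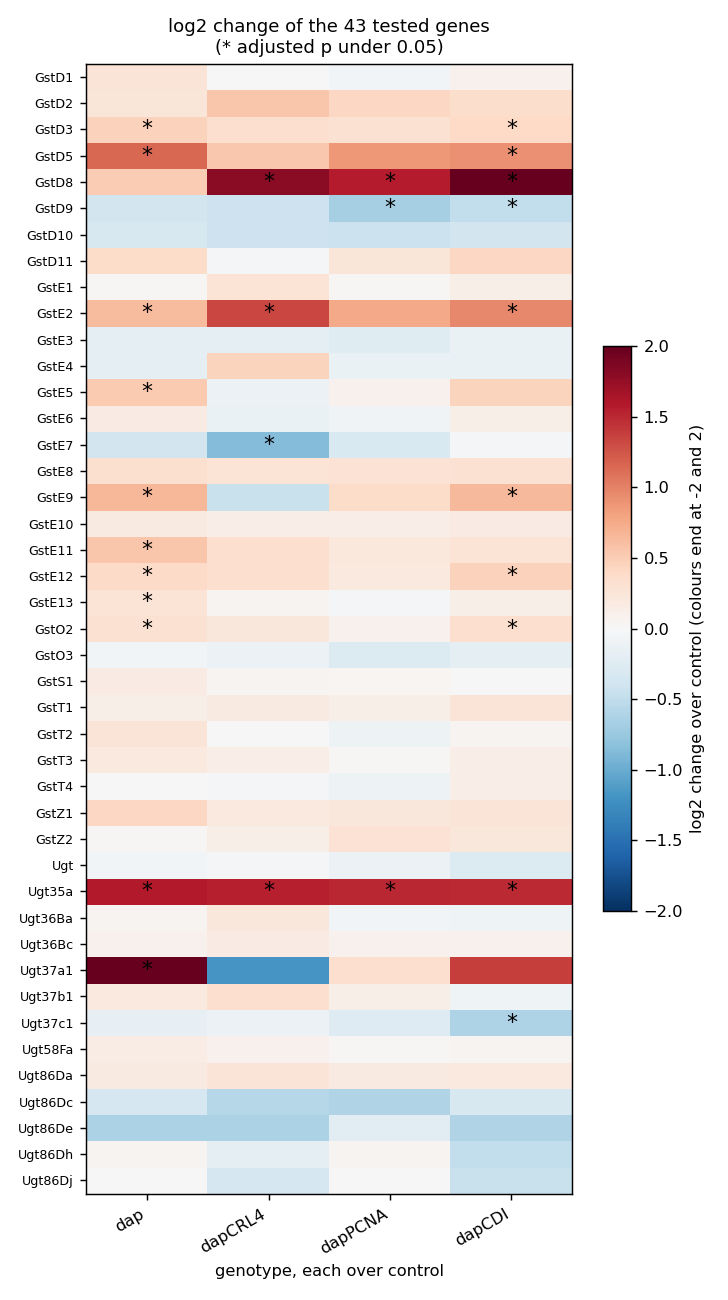
Log2 change over the control of the 43 tested genes (rows) in dap, dapCRL4, dapPCNA and dapCDI (columns), with an asterisk at a limma adjusted p under 0.05 and colours that end at −2 and 2. Ugt35a is called in all 4 columns and GstD8 in all but dap, and Ugt37a1, at 3.20 with dap, lies past the end of the scale.

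Ugt35a (FBgn0026315, now Ugt35A1; chromosome arm 3R, positions 11170817 to 11172664) was higher in every form. It stood at 14.7 and 14.9 RPKM with dap, 14.1 and 14.8 with dapCRL4, 13.7 and 14.0 with dapPCNA and 13.0 and 14.6 with dapCDI, against 4.55 and 5.30 RPKM in control embryos. All 8 UAS-dacapo libraries lay within 13.0 to 14.9 RPKM and above both controls, with no overlap. The rise was 3.01-fold in dap (log2 1.59, interval 1.36 to 1.82, limma adjusted p = 5.39e-05) and 2.94-fold in dapCRL4 (1.56, 1.32 to 1.79, limma adjusted p = 6.63e-05). It was 2.82-fold in dapPCNA (1.5, 1.26 to 1.73, limma adjusted p = 0.000126) and 2.81-fold in dapCDI (1.49, 1.25 to 1.72, limma adjusted p = 8.01e-05). These 4 calls held in every setting tried and without any of the 10 libraries. Against dap, Ugt35a differed by −0.03 with dapCRL4 (limma adjusted p = 0.895), −0.09 with dapPCNA (limma adjusted p = 0.599) and −0.10 with dapCDI (limma adjusted p = 0.826), and none passed. Its neighbour Ugt35b on the same strand stood at 0.869 and 0.616 RPKM with dap, 0.616 and 0.831 with dapCRL4, 0.723 and 0.694 with dapPCNA, 0.681 and 0.746 with dapCDI, and 0.651 and 0.715 in control embryos, where the genotypes overlapped.

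Marker genes of organs and cell types were summed beside Ugt35a. The sums of hemocytes, oenocytes, muscle, glia and germ cells overlapped between UAS-dacapo and control libraries and are not given. The 4 tracheal markers summed to 67.9 to 76.5 RPKM in the UAS-dacapo libraries and to 81.8 and 80.0 in the controls. Of these 4, 1 was called lower in dap, dapPCNA and dapCDI, and with length correction in dapCRL4 and dapPCNA. The 6 markers of the Malpighian tubule, the fly's excretory organ, summed to 177 to 196 RPKM in the 8 UAS-dacapo libraries and to 106 and 124 RPKM in the controls. Of the 5 tested, only the zinc transporter gene ZnT35C was called higher, in all 4 forms (log2 1.06, 0.97, 0.91 and 1.04 with dap, dapCRL4, dapPCNA and dapCDI), and ct was called lower in dap (−0.68, and −0.29 with limma adjusted p = 0.0969 after length correction). The other 5 markers without ZnT35C summed to 22.1 to 33.0 RPKM in the UAS-dacapo libraries and to 37.5 and 36.6 in the controls, lower where the full sum was higher. None of the 6 was at 0 in all libraries. The 6 fat body markers summed to 1112 to 1293 RPKM in the UAS-dacapo libraries and to 1098 and 1042 in the controls. Among them Adh averaged 606, 474, 564 and 698 RPKM with dap, dapCRL4, dapPCNA and dapCDI, against 419 in the controls. Rfabg (now apolpp) averaged 458, 591, 575 and 478 RPKM in the same order, against 558. In dap Adh was called higher (log2 0.54, limma adjusted p = 0.0171). Rfabg was called lower there (−0.29, limma adjusted p = 0.0496, and 0.09 with length correction). The 5 midgut markers summed to 315 to 352 RPKM in the UAS-dacapo libraries and to 323 and 316 in the controls. The 4 neuronal markers summed to 63.0 to 121 RPKM in the UAS-dacapo libraries and to 138 and 130 in the controls. Of the 3 tested, 1 was called lower in dapCDI and none in the other forms, and with length correction none was called. Their median log2 change was −0.48 in dap and −0.77 in dapCDI, and −0.22 and −0.47 with length correction. The 5 salivary gland markers summed to 159 to 186 RPKM in the UAS-dacapo libraries and to 202 and 217 in the controls. Without PH4alphaSG2, called lower in all 4 forms, the other 4 summed to 133 to 163 and to 151 and 155 RPKM, which overlap. Among these, PH4alphaSG1 was called higher in dap (log2 0.37, limma adjusted p = 0.0339) and CrebA lower (−0.38, limma adjusted p = 0.0369). Both calls in dap were lost with length correction, at 0.24 and −0.25. In dapCDI 1 of the 5 was called higher, also with length correction. The part of these organs in the change of Ugt35a was not tested.

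The delta class lies in an array of 11 genes on arm 3R (12364776 to 12385624), and 8 of them were tested. In dapCDI 3 of the 8 rose and 1 fell, in dapPCNA 1 rose and 1 fell, in dapCRL4 1 rose, and in dap 2 rose. Over all genes tested 7.56%, 1.3%, 1.45% and 11.8% were called in the same order. With length correction 1 rose and 1 fell in both dapCDI and dapPCNA, 1 rose in dapCRL4, and 1 fell in dap. The only rise in dapCRL4 and in dapPCNA, and 1 of the 3 in dapCDI, was that of GstD8. With length correction GstD8 was the only rise in all 3 forms. Because GstD8 passed the filter only through these forms, its calls add nothing to the counts of the class. GstD8 (FBgn0010044; 12380008 to 12380815) had the largest called changes of the class, at low levels. It stood at 0.904 and 0.972 RPKM with dap, 2.28 and 2.36 with dapCRL4, 1.68 and 2.30 with dapPCNA and 2.29 and 3.07 with dapCDI, against 0.790 and 0.558 RPKM in control embryos. Every library of the 3 stabilized forms lay above every dap and control library, and dap lay just above the control. The difference was 3.5-fold in dapCRL4 (log2 1.81, interval 1.18 to 2.43, limma adjusted p = 0.013), 2.97-fold in dapPCNA (1.57, 0.95 to 2.19, limma adjusted p = 0.0245) and 4-fold in dapCDI (2.0, 1.38 to 2.62, limma adjusted p = 0.00703). Since GstD8 was tested only because these forms are high, the fit without the filter bears more on it, and there the limma adjusted p was 0.0546, 0.0829 and 0.0343 in that order, past the threshold in dapCDI only. The difference of 0.50 between dap and the control did not pass (interval −0.12 to 1.12, limma adjusted p = 0.24). The estimated reads behind GstD8 were 15 and 16 with dap, 37 and 43 with dapCRL4, 29 and 33 with dapPCNA, 32 and 49 with dapCDI, and 16 and 11 in control libraries, so few reads stand behind each value.

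GstD5 (FBgn0010041) stood at 15.7 and 12.2 RPKM with dap, 11.0 and 7.49 with dapCRL4, 9.62 and 13.6 with dapPCNA and 12.4 and 11.4 with dapCDI, against 5.22 and 7.51 RPKM in control embryos. Only the lower dapCRL4 library overlapped the control. It rose in dap (log2 1.15, limma adjusted p = 0.0231) and in dapCDI (0.92, limma adjusted p = 0.049), and length correction left 0.89 (limma adjusted p = 0.0837) and 0.71 (limma adjusted p = 0.14). GstD3 rose in dap (0.46, limma adjusted p = 0.0191) and dapCDI (0.40, limma adjusted p = 0.0365), and both calls were lost with length correction, at 0.19 and 0.17. GstD9 moved the other way. It stood at 10 and 8.07 RPKM with dap, 8.04 and 9.33 with dapCRL4, 7.11 and 7.5 with dapPCNA, 8.12 and 8.35 with dapCDI, and 12.2 and 11.0 in control embryos, so that all 8 UAS-dacapo libraries lay below both controls. It fell in dapPCNA (−0.67, interval −0.96 to −0.38, limma adjusted p = 0.0396) and dapCDI (−0.50, −0.79 to −0.21, limma adjusted p = 0.049), and with length correction also in dap (−0.63, limma adjusted p = 0.0379). The abundant GstD1 was called in no form, with changes of −0.05 to 0.25, and neither were GstD2, GstD10 and GstD11. Without control 2 each delta-class call was lost except that of GstD8 with dapCDI, and without control 1 those of GstD3, GstD5 and GstD9 were lost. Leaving out either library of the form itself ended the calls of GstD8 with dapCRL4 and dapPCNA, GstD5 with dap and GstD9 with dapPCNA, and leaving out dap 2 or dapCDI 1 ended the others except GstD8. Either dapCRL4 library also decided GstD8 and GstD9 with dapPCNA and GstD3, GstD5 and GstD9 with dapCDI, either dapPCNA library GstD5 and GstD9 with dapCDI, and either dap library GstD5 with dapCDI. The adjusted p without a library reached 0.276, and every change kept its sign.

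**Figure D3:**
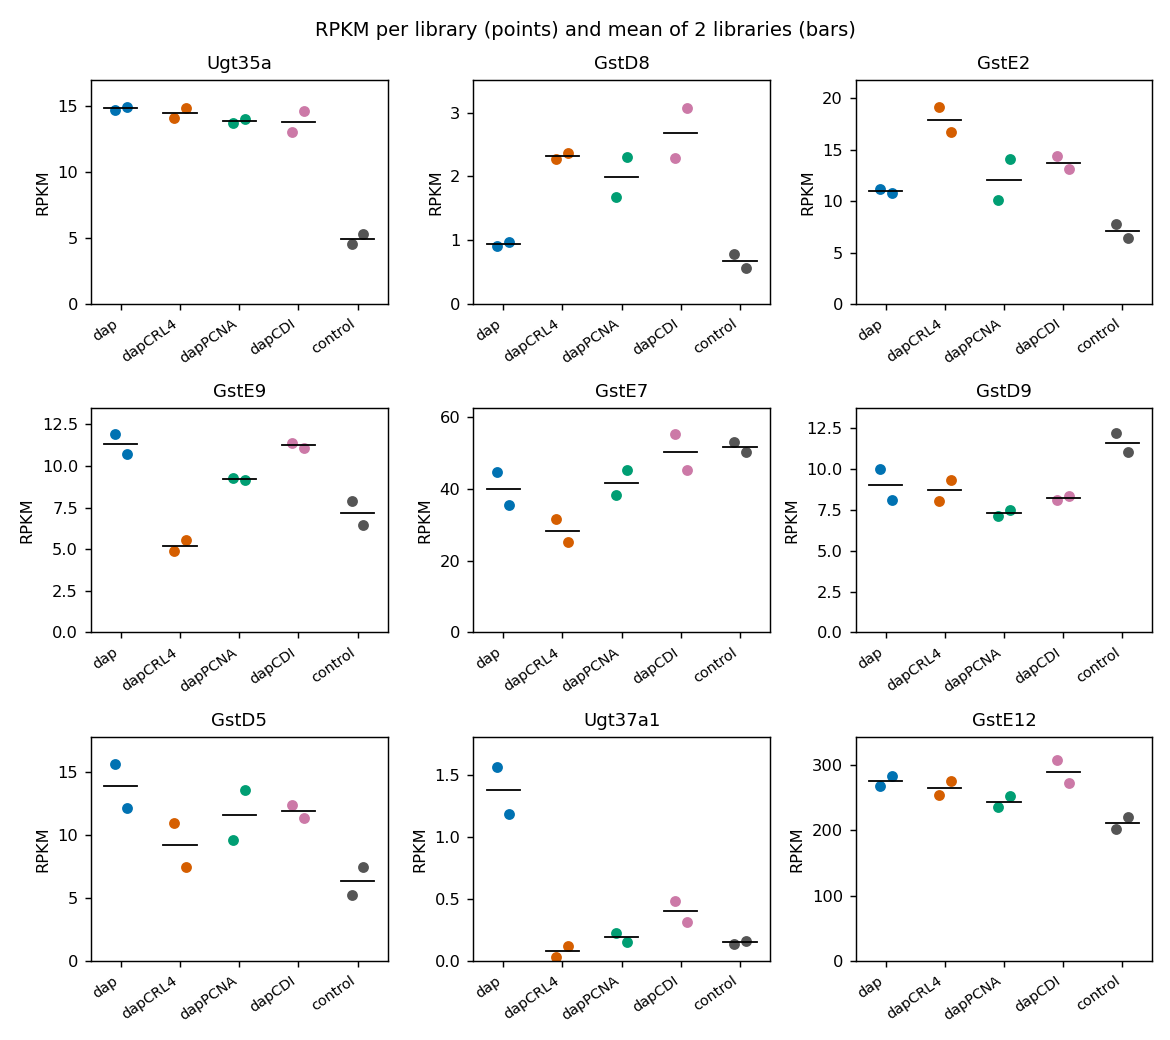
RPKM in each library (points) and the mean of 2 libraries (bars) for 9 Gst and Ugt genes in dap, dapCRL4, dapPCNA, dapCDI and control embryos, with every axis starting at 0. Ugt35a lies at 13.0 to 14.9 RPKM in all 8 UAS-dacapo libraries and at 4.55 and 5.30 in the controls, and GstE9 is lowest in dapCRL4, at 4.91 and 5.54 RPKM.

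The epsilon class had 13 tested genes, 10 of them in an array on arm 2R (18396638 to 18409835). In dap 6 of the 13 rose, in dapCRL4 1 rose and 1 fell, in dapPCNA none was called, and in dapCDI 3 rose. Over all genes tested 11.8%, 1.45%, 1.3% and 7.56% were called in the same order. With length correction 0 rose and 1 fell in dap, 1 rose and 2 fell in dapCRL4, none was called in dapPCNA, and 2 rose in dapCDI. Epsilon enzymes are known in flies for the conjugation of hydroxynonenal, a product of lipid peroxidation, and of plant isothiocyanates. GstE2 (FBgn0063498; 18399486 to 18400375) stood at 11.2 and 10.8 RPKM with dap, 19.2 and 16.7 with dapCRL4, 10.1 and 14.1 with dapPCNA and 14.4 and 13.1 with dapCDI, against 7.81 and 6.42 RPKM in control embryos. All 8 UAS-dacapo libraries lay above both controls, and the 2 highest were those of dapCRL4. It rose 2.53-fold in dapCRL4 (log2 1.34, interval 0.98 to 1.70, limma adjusted p = 0.00263), a call that held in every setting and without any library. It rose 1.94-fold in dapCDI (0.96, limma adjusted p = 0.0161) and 1.56-fold in dap (0.64, limma adjusted p = 0.036), a call lost with length correction (0.39, limma adjusted p = 0.173), while 0.75 with dapPCNA just missed (interval 0.40 to 1.11, limma adjusted p = 0.0623).

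GstE9 (FBgn0063491; 18409048 to 18409835) was lowest in dapCRL4. It stood at 11.9 and 10.7 RPKM with dap, 4.91 and 5.54 with dapCRL4, 9.26 and 9.18 with dapPCNA and 11.4 and 11.1 with dapCDI, against 7.87 and 6.48 RPKM in control embryos. Both dapCRL4 libraries lay below both controls, and the 6 libraries of the other forms lay above them. It rose in dap (0.66, interval 0.38 to 0.93, limma adjusted p = 0.0178) and dapCDI (0.65, limma adjusted p = 0.0236), was 0.37 with dapPCNA (limma adjusted p = 0.252) and −0.45 with dapCRL4 (−0.73 to −0.18, limma adjusted p = 0.114). With length correction the fall in dapCRL4 passed (−0.57, limma adjusted p = 0.0462) and the rises in dap (0.39, limma adjusted p = 0.0999) and dapCDI (0.43, limma adjusted p = 0.0763) did not. GstE9 overlaps an exon of imd on the opposite strand, and imd, the adaptor of an antibacterial immune pathway, was called in no form and stood at 21.2 to 26.9 RPKM in all 10 libraries.

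GstE7 (18406924 to 18407688), parted from GstE9 by GstE8 alone, stood at 44.6 and 35.6 RPKM with dap, 31.6 and 25.1 with dapCRL4, 38.3 and 45.2 with dapPCNA and 55.3 and 45.4 with dapCDI, against 53.1 and 50.2 RPKM in control embryos. The dapCRL4 libraries were the lowest, and only dapCDI overlapped the control. It fell in dapCRL4 (−0.87, interval −1.21 to −0.54, limma adjusted p = 0.0198), and with length correction also in dap (−0.64, limma adjusted p = 0.0443). GstE12 (FBgn0027590), alone on arm 2R and the third most abundant member, stood at 268 and 283 RPKM with dap and 307 and 273 with dapCDI, against 202 and 220 in control embryos. It rose by 0.38 with dap (limma adjusted p = 0.024) and 0.46 with dapCDI (limma adjusted p = 0.0214), and with length correction only the call in dapCDI was kept, at 0.31 (limma adjusted p = 0.03).

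In dap GstE5 (0.52, limma adjusted p = 0.029), GstE11 (0.55, limma adjusted p = 0.00962) and GstE13 (0.28, limma adjusted p = 0.0428) rose too, and all 3 calls were lost with length correction, at 0.25, 0.31 and 0.05. The abundant GstE6 was not called, at −0.14 to 0.17, and neither were GstE1, GstE3, GstE4, GstE8 and GstE10 in any form, with changes between −0.24 and 0.45. Without control 2 all epsilon calls were lost except that of GstE2 with dapCRL4, without dap 2 the 6 with dap, without dapCDI 1 the 3 with dapCDI and without dapCRL4 2 that of GstE7. Without control 1 those of GstE9 and of GstE2 with dapCDI and dapCRL4 were the only ones kept. GstE2 with dap also fell short without dap 1 or dapCRL4 1, and GstE13 without dap 1 or any dapCRL4 or dapPCNA library. The adjusted p without a library reached 0.199, and no change turned its sign. Delta and epsilon genes are tandem copies of similar sequence, and reads of 50 bases may be split among them, so values of single copies are uncertain to that extent.

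Among the other glutathione transferases only GstO2 was called. This omega-class gene (FBgn0035906; arm 3L, 8521429 to 8523501) is known in flies for restoring mitochondrial function in parkin mutants. It stood at 120 and 114 RPKM with dap, 108 and 116 with dapCRL4, 97.7 and 105 with dapPCNA and 127 and 112 with dapCDI, against 99.1 and 91.2 RPKM in control embryos. Only the lower dapPCNA library overlapped the control. The rises in dap (0.30, limma adjusted p = 0.0464) and dapCDI (0.33, limma adjusted p = 0.0473) were small and were lost with length correction (0.17 and 0.23). Leaving out any library but dapCDI 1 or 2 for dap, and any but dapCDI 2 for dapCDI, also ended them, with an adjusted p of up to 0.231. The neighbour GstO3 was not called, at −0.27 to −0.06. GstS1 was not called, at 0.01 to 0.16, nor were the 4 theta-class genes, at −0.10 to 0.26. The zeta class includes the maleylacetoacetate isomerase of tyrosine breakdown. Its genes GstZ1 and GstZ2 lay at 0.03 to 0.42 in the 4 forms and were not called. The interval that reached highest, that of GstZ1 with dap, ran from 0.02 to 0.83.

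Of the 12 Ugt genes other than Ugt35a that were tested, 2 were called, each in 1 form, and 1 of these, Ugt37a1, is only described. Ugt37a1 (FBgn0026756; arm 2L, 20372409 to 20374104) stood at 1.57 and 1.19 RPKM with dap, 0.0348 and 0.123 with dapCRL4, 0.227 and 0.157 with dapPCNA and 0.488 and 0.314 with dapCDI, against 0.134 and 0.165 RPKM in control embryos. Only the 2 dap libraries were above 1 RPKM, and dapCRL4 lay below both controls. The fitted difference was 3.20 with dap, 1.39 with dapCDI, 0.34 with dapPCNA and −1.18 with dapCRL4, given as a description. Estimated reads were 54 and 41 with dap, 1 and 5 with dapCRL4, 8 and 5 with dapPCNA, 14 and 10 with dapCDI, and 6 and 7 in control libraries. Because the gene was tested only through the libraries where it is high, its call in dap, 1 of the 11, supports nothing, and it was lost without the filter.

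Ugt37c1 stood at 9.47 and 11.8 RPKM with dap, 11.4 and 10.7 with dapCRL4, 9.58 and 10.3 with dapPCNA and 8.69 and 7.0 with dapCDI, against 12.8 and 11.0 RPKM in control embryos. Both dapCDI libraries lay below all others. It fell in dapCDI (−0.61, interval −0.93 to −0.29, limma adjusted p = 0.0446), and this call was lost without any 1 library except either of dap (highest adjusted p 0.209). The 3 genes Ugt36Ba, Ugt36Bc and Ugt58Fa, at 16.4 RPKM or more in every library, had log2 changes of −0.08 to 0.23 and were not called. Ugt37b1, at 3.01 to 4.81 RPKM, lay at −0.08 to 0.33, and Uggt, listed as Ugt, at −0.28 to −0.03, also with no call. The other genes at the Ugt86D locus lay at −0.64 to 0.25, and the closest to a call was Ugt86Dh in dapCDI (−0.50, interval −0.86 to −0.14, limma adjusted p = 0.0768).

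In all, 41 members lie in 7 groups with gaps under 30 kb, and 12 lie alone. Called and uncalled genes stood side by side in each of the large arrays. The array of Ugt86D and Ugt35 genes (3R, 11126597 to 11177910) held 10 members, 6 of them tested, and Ugt35a was its only called gene in each form. The GstE array held 3 calls in dap (GstE2, GstE5 and GstE9), 2 of opposite sign in dapCRL4 (GstE2 and GstE7) and 2 with dapCDI (GstE2 and GstE9). In the GstD array the outermost genes on 1 side, GstD10 and GstD9, were negative in all 4 forms, and GstD2, GstD3, GstD5 and GstD8 positive in all 4. Comparisons that share their control libraries repeat such signs in part by construction.

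**Figure D4:**
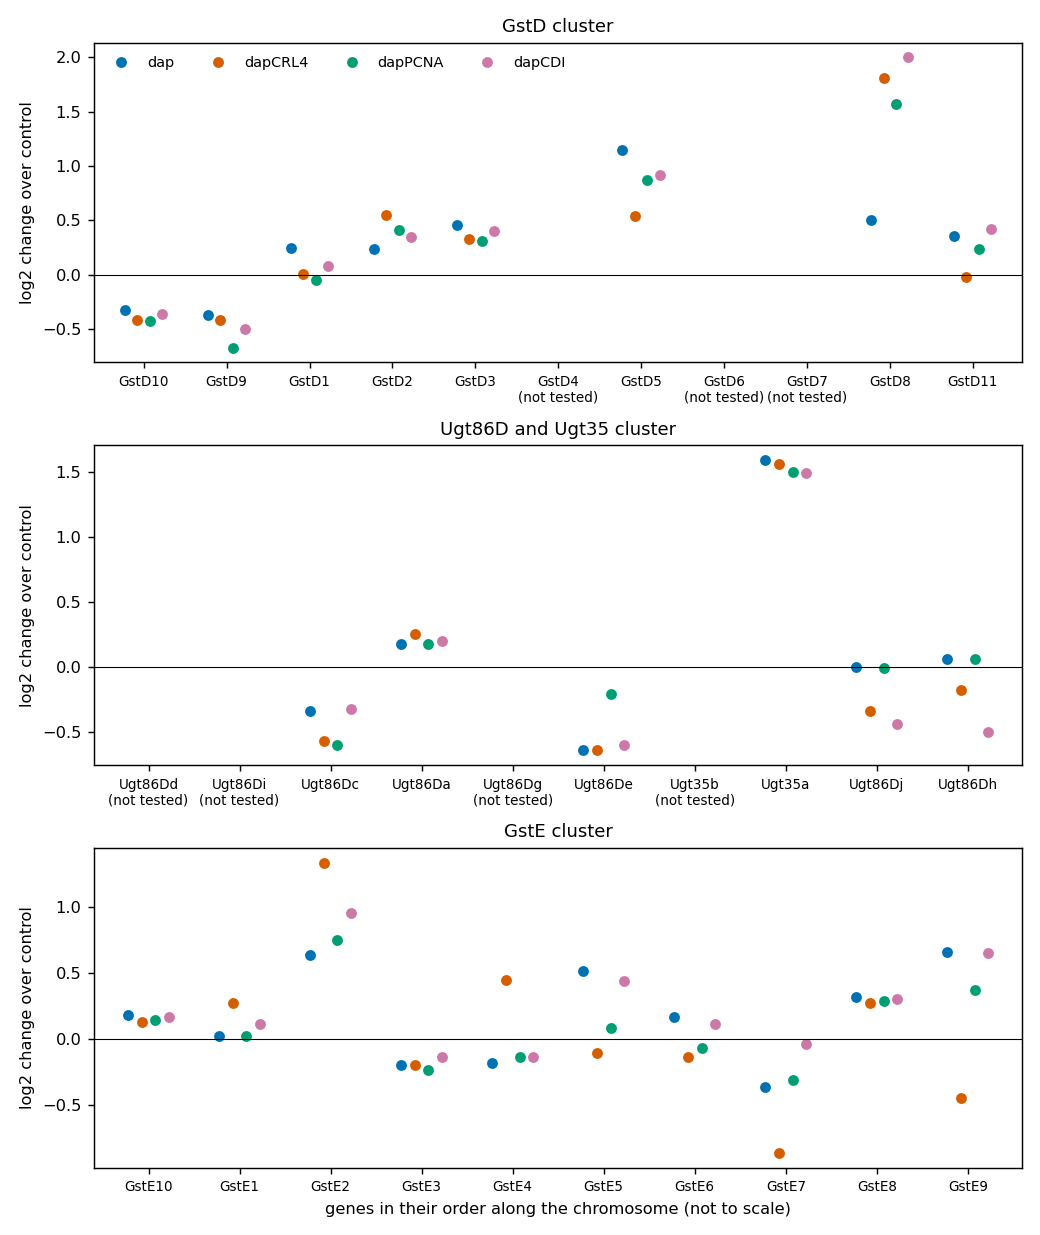
Log2 change over the control (vertical axis) of each gene in the GstD array, the Ugt86D and Ugt35 array and the GstE array, in chromosome order and not to scale, with 1 point each for dap, dapCRL4, dapPCNA and dapCDI. Ugt35a stands at 1.49 to 1.59 between uncalled or untested neighbours, and GstE9 is negative in dapCRL4 alone, at −0.45.

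The stabilized forms were set against wild-type dacapo to show where they differed. In dapCRL4 against dap 1 of the 43 members was called, GstE9, where 0.164% of all genes were called. It fell by 1.11 on the log2 scale (interval −1.38 to −0.84, limma adjusted p = 0.0227), to 4.91 and 5.54 RPKM with dapCRL4 against 11.9 and 10.7 with dap, with no overlap. With length correction the fall was 0.96 (limma adjusted p = 0.021), and GstE1 was then called too (0.39, limma adjusted p = 0.0481; 0.363% of all genes called). In dapPCNA against dap none of the 43 was called (limma, 1.33% of all genes), with 11 at an unadjusted p under 0.05, 10 of them lower. The share of all genes at an unadjusted p under 0.05 was not counted. In this comparison 8 of the 43 members and 4326 of the 10396 genes tested had a positive change. With length correction 24 of the 43 members and 5199 of 10202 genes did. In dapCDI against dap none was called (limma, 0.144% of all genes), with 5 at an unadjusted p under 0.05. GstD8 had the same sign in all 3, at 1.31 with dapCRL4 (interval 0.69 to 1.93, limma adjusted p = 0.114), 1.07 with dapPCNA (0.45 to 1.69, limma adjusted p = 0.084) and 1.5 with dapCDI (0.88 to 2.12, limma adjusted p = 0.0942), and passed in none. Since the 3 comparisons share the dap libraries, these are not independent.

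Over all 5 genotypes 7 members differed by limma's moderated F test, with 3.09% of all genes called. They were Ugt35a (limma adjusted p = 0.000186), GstE9 (0.00379), GstD8 (0.0134, and 0.0644 without the filter), GstE2 (0.0154), GstE7 (0.0464), GstE11 (0.0464) and GstE5 (0.0483). With length correction GstE5 (0.0549) and GstE11 (0.194) were lost. Among the 3 stabilized forms alone GstE9 was the only member called (limma adjusted p = 0.0186; 0.135% of all genes). In the pairs, added after the data were seen, GstE9 was lower in dapCRL4 than in dapCDI by 1.11 (log2 −1.11, interval −1.38 to −0.83, limma adjusted p = 0.0158; 0.0673% of all genes called). Against dapPCNA it was −0.82 (interval −1.09 to −0.55, limma adjusted p = 0.0843), which passed with length correction (−0.87, limma adjusted p = 0.0491; 0.0882% of all genes called), as did the difference from dapCDI (−1.0, limma adjusted p = 0.0282; 0.049%). No other member was called among the stabilized forms, where 0.0577% of all genes were called in dapCRL4 against dapPCNA and 0.173% in dapPCNA against dapCDI. The fall of GstE9 with dapCRL4 was lost without either dap library or dapCRL4 1 in the comparison with dap (adjusted p of up to 0.173), and without either dap library, dapCRL4 1, dapPCNA 1 or dapCDI 1 in that with dapCDI (up to 0.16). The call among the 3 forms was lost without dap 1, either dapCRL4 library, dapPCNA 1 or dapCDI 1 (up to 0.155). Over the 5 genotypes the calls of Ugt35a and GstE9 held without any library, that of GstD8 was lost without control 2 (0.0572), and that of GstE2 without dap 2, dapCRL4 1 or control 2 (up to 0.104). GstE5 and GstE7 lost theirs without any dap, dapCRL4, dapPCNA or control library, and GstE11 without any dap, dapCRL4 or control library (up to 0.179).

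**Figure D5:**
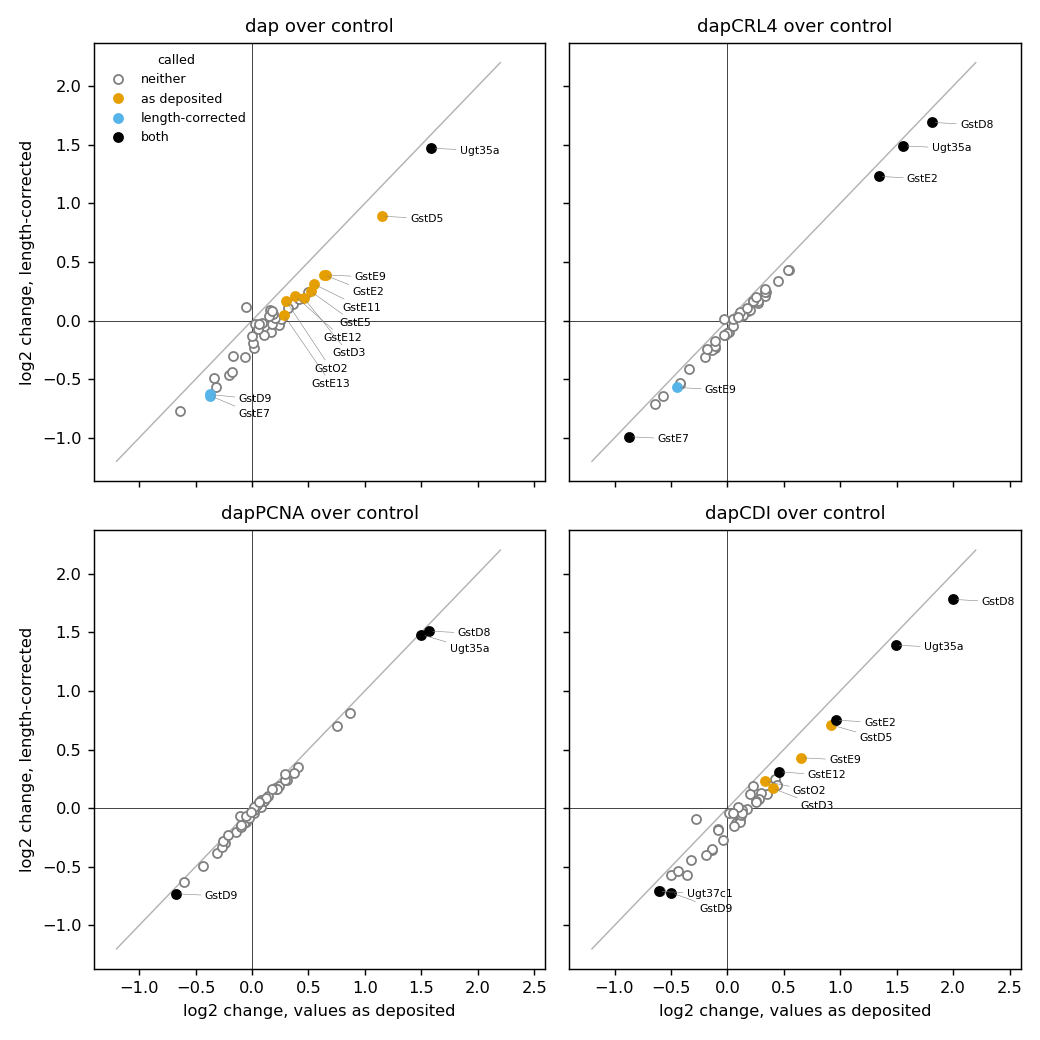
Log2 change over the control as deposited (horizontal axis) and with the exon length trend subtracted (vertical axis) in 4 panels for dap, dapCRL4, dapPCNA and dapCDI, with 1 point per tested gene coloured by the setting in which it was called. Ugt37a1 is left out for its wide range, and in dap and dapCDI nearly all points lie below the diagonal, and the 9 Gst rises called in dap are lost while Ugt35a stays at 1.39 to 1.49.

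Genes that supply or control these enzymes gave few calls. The share of all genes at an unadjusted p under 0.05 was not counted. Counts at that cut, here and in the next paragraph, therefore show nothing particular to these lists. Of 9 tested genes of glutathione supply and related enzymes 1 rose in dap, CG6852 (now Grx1), a glutaredoxin gene (0.31, limma adjusted p = 0.0487, and 0.03 with length correction), and none was called in the other forms, with 0 at an unadjusted p under 0.05 with dapCRL4 and dapPCNA and 3 with dapCDI. With length correction Gclm, the modifier subunit of the enzyme that limits glutathione synthesis, was lower in dap (−0.28, limma adjusted p = 0.0336). Gclc, the catalytic subunit of the same enzyme, lay at −0.08 to 0.15 and was not called. Of 6 xenobiotic regulators, which include the stress regulators cnc and Keap1 and the nuclear receptor Hr96, none was called by limma in any form, with 2, 0, 0 and 1 at an unadjusted p under 0.05 with dap, dapCRL4, dapPCNA and dapCDI. For cnc the change was −0.32 with dap and −0.39 with dapCDI (limma adjusted p = 0.0852 and 0.0589), and −0.00 and −0.07 with length correction. The 6 tested epoxide hydrolases and inducible P450 genes gave no limma call, with 2, 2, 3 and 0 at an unadjusted p under 0.05 in that order of forms.

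Of 8 antioxidant genes 3 rose in dap, the mitochondrial superoxide dismutase gene Sod2 (0.40, limma adjusted p = 0.0279) and the peroxiredoxin genes Prx3 (0.37, limma adjusted p = 0.0243) and Prx5 (0.33, limma adjusted p = 0.0473). Over all genes tested 8.53% were called higher in dap and 4.73% in dapCDI. In dapCDI Sod2 and Prx5 rose (both 0.37), and with length correction no antioxidant call was kept in either form. In dapCRL4 and dapPCNA none was called by limma, with 3 and 1 at an unadjusted p under 0.05. The 2 UDP-sugar genes moved apart in dapCDI, where UGP, which makes UDP-glucose, rose (0.41, limma adjusted p = 0.0477) and sgl, which makes UDP-glucuronate from it, fell (−0.29, limma adjusted p = 0.0471), and neither was called by limma in the other forms, with 1, 2 and 1 at an unadjusted p under 0.05 for dap, dapCRL4 and dapPCNA. With length correction sgl was lower in dap too (−0.28, limma adjusted p = 0.0446). Of 4 tested ecdysteroid synthesis genes none was called by limma in any form, with 1 at an unadjusted p under 0.05, in dapCDI. Of 4 tested efflux transporters MRP, an exporter of conjugates, fell in dap (−0.33, limma adjusted p = 0.0479, and −0.06 with length correction), and none was called by limma in the other forms, with 1, 0 and 1 at an unadjusted p under 0.05 for dapCRL4, dapPCNA and dapCDI.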

How the data were processed

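The values analysed are log2 RPKM per gene in 10 libraries, as deposited by the authors, with exact zeros set to a fixed floor. The build BDGP6 is named in the submitters' processing notes, while no source used here gives the aligner, the counter, the annotation or the use of strand. Genes were matched by current or older symbol to the Ensembl release 115 annotation, which gave identifiers, positions and exon lengths (11814 current and 3327 older names, with 281 unmatched). Depth was estimated from the steps of low values. Each library other than control 1 was compared with control 1 over low genes, after scaling for depth. At least 78.8% of their ratios lay within 0.003 log2 units of a ratio of small whole numbers. Comparisons used limma 3.58.1 in R 4.3.3 with a mean-variance trend, 1 mean per genotype and all 10 libraries, two-sided, over genes with at least 1 RPKM in 2 or more libraries, with Benjamini-Hochberg adjustment and a threshold of 0.05. Scripts were tested on simulated data. For length correction a lowess trend on log exon length (span 0.3) was subtracted from each library. The p-values rest on the spread between the 2 samples of a genotype, pooled over all genotypes and drawn by limma towards the mean-variance trend. A call between 2 genotypes therefore also depends on the libraries of the other genotypes. The members and gene lists were chosen with earlier results of these data known, and every member was open to be named. The 3 pairwise tests among the stabilized forms were added after the data were seen. A count of estimated reads carries counting error only. RPKM cancels library size and not a change in total RNA per embryo.

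Overlapping genes could not be separated without strand, and the members that share exons with a gene on the opposite strand were GstE1 and GstE10 (with each other), GstE9, GstE12, GstE13, GstO2, GstT2 and Ugt37a1.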

Additional observations from a re-analysis of the deposited data

How the results depend on the processing

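Of the 28 calls against the control, 5 held in every setting tried, those of Ugt35a in the 4 forms and of GstE2 in dapCRL4. Without a filter on low values 21 were lost, without the mean-variance trend 16, with length correction 14 and with only the compared groups in the fit 11, while 4 were lost under quantile normalization and none with median centring or with log2(RPKM + 1). Without at least 1 of the libraries 22 were lost, most often control 2 (22) and control 1 (17). No change named in the text that passed the test turned its sign. The share of all genes called also depended on the setting. With length correction it fell from 11.8% to 3.45% in dap and from 7.56% to 3.56% in dapCDI. It rose from 1.45% to 2.12% in dapCRL4 and from 1.3% to 2% in dapPCNA. For the other settings this share is not given, so the member counts that follow do not show a change particular to the members. The number of members called in dap against control was 11 and became 2 with no filter, 3 with length correction and 4 with no trend, and ran between 1 and 12 over the libraries left out in turn. In dapCRL4 it was 4, and 2 to 5 without a library. In dapPCNA it was 3, with 1 under no filter and 1 to 3 without a library. In dapCDI it was 10, with 2 under no filter, 6 with length correction, 3 with no trend, 1 with only the groups compared, and 2 to 10 without a library.

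Ugt37a1, tested only through the dap libraries where it is high, is the second call in dapCRL4 against dap under log2(RPKM + 1) and supports nothing. Fits with no filter also held the 10 untested members. In dapCRL4 against dap 1 member was called, 2 with log2(RPKM + 1), 2 with no filter, 2 with length correction, and 0 with only the groups compared. In dapPCNA against dap it was 0, with 1 (Ugt37a1, tested only through the dap libraries) under log2(RPKM + 1) and 0 to 5 without a library, with 4 and 5 reached when dapCDI 1 or dapCDI 2 was left out. In dapCDI against dap it was 0 throughout. Over the 5 genotypes 7 members were called, 3 with no filter, 3 with no trend and 2 to 14 without a library. Among the 3 stabilized forms it was 1, with 2 under no filter, 0 with no trend and 0 to 2 without a library. The tests over several genotypes were not run with fewer groups.

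The replicate numbers of the labels were tried as a block. Deviations of same-numbered libraries correlated at −0.053 to 0.089 between genotypes, and whether such libraries shared a batch was not tested. With the replicate block 7 members were called with dap, 4 with dapCRL4, 2 with dapPCNA and 6 with dapCDI against the control, 1 in dapCRL4 against dap, 6 over the 5 genotypes and 1 among the stabilized forms, and 9 of the 28 calls were lost. The cause of these shifts was not tested. With an estimated 17.1 to 25.8 Mreads (units of 1e6) per library, genes near 1 RPKM such as GstD8 and Ugt37a1 rest on few reads.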

Other observations

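The expression table holds 18 further UDP-glycosyltransferase genes under other names, 15 of them tested. One of them, CG10178 (now Ugt301D1; arm 2L, 18509560 to 18513512), stood at 46.7 and 42.0 RPKM with dap, 37.2 and 37.9 with dapCRL4, 47.7 and 50.8 with dapPCNA and 43.5 and 40.3 with dapCDI, against 33.5 and 28.5 RPKM in control embryos. All 8 UAS-dacapo libraries lay above both controls. CG10178 rose in dap (log2 0.52, limma adjusted p = 0.017), dapPCNA (0.67, limma adjusted p = 0.00664) and dapCDI (0.44, limma adjusted p = 0.0347), and was 0.28 in dapCRL4 (limma adjusted p = 0.196). Of the 15 it was the only gene called against the control as deposited.

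CG5724 (now Ugt37A2; arm 3R, 12739642 to 12741417) had more RNA in both control libraries than in any other. It stood at 0.0906 and 0.103 RPKM with dap, 0.158 and 0.139 with dapCRL4, 0.088 and 0 with dapPCNA and 0.0368 and 0.126 with dapCDI, against 3.06 and 1.45 RPKM in control embryos. It passed the filter only through the control libraries where it is high, so no test of it is given, and whether its level there belongs to the stock or to the absence of a UAS transgene cannot be told apart.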
